A study of Mus musculus with 8 samples.

Results

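The cells labelled Lrig1 were compared with the cells labelled K14 after ablation, in 4 of the 8 libraries of a mouse skin series: Lrig1 ablation 1 and 2 against K14 ablation 1 and 2. The series concerns clonal expansion and tissue fluidity in repairing epidermis. Each library was made from sorted epithelial cells of skin epidermis, by polyadenylated RNA extraction and a low-input cDNA library kit. Both groups of 2 carry the genotype label of an ablated basal lineage, with no agent, driver, strain, age or time after ablation given in the sources used here. The other 4 libraries, 2 of K14 control and 2 of Lrig1 control, are labelled wild type and served as the reference for how the populations differ without ablation. The labels do not say if K14 and Lrig1 name a Cre driver, a sorting marker or the lineage that was removed, and below they serve only as names of populations. All 17084 genes that reached the filter on low values in the 4 ablation libraries were tested. Nothing in the labels says that the 2 libraries of a group came from separate animals, so every p-value measures only the spread between these libraries, which in the controls may be technical. In both ablation pairs the sex-linked genes given below differed between library 1 and library 2, so these were not repeats of 1 sample.

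Mouse epidermis has an interfollicular part, whose basal layer is marked by the keratins Krt5 and Krt14, and hair follicles with stem cell compartments of their own. Lrig1 is a transmembrane brake on EGF receptor signalling and marks stem cells of the upper follicle, while the bulge below it holds cells marked by Cd34, Lgr5, Lhx2 and Sox9. After injury, cells of both sources can contribute to new epidermis. Injured keratinocytes typically switch on the keratins Krt6 and Krt16, EGF receptor ligands, matrix proteins and proteases, and inflammatory signals.

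The recovered depth of the 4 ablation libraries was 7767292 to 11654135 reads. Mitochondrially encoded genes took 2.62 and 2.34% of the normalised reads in K14 ablation 1 and 2, and 3.14 and 4.14% in Lrig1 ablation 1 and 2. The ablation pairs were far less alike than the control pairs: a chi-square test of the reads gave 29.0 per gene within K14 ablation and 40.2 within Lrig1 ablation, against 1.58 in K14 control and 2.61 in Lrig1 control. Counted in genes at least 2-fold apart, K14 ablation 1 and 2 differed at 11.3% of the tested genes and Lrig1 ablation 1 and 2 at 16.9%. Lrig1 ablation 1 differed from the K14 ablation libraries at 11.1 and 10.1%, no more than these differed from each other. Lrig1 ablation 2 differed from them at 21.4 and 24.3% and stood apart from the other three. Xist, the RNA of the inactive X chromosome, was 25230 and 6948 in K14 ablation and 23378 and 66.1 in Lrig1 ablation, and the Y-linked Ddx3y was 0.708 and 759 and then 0 and 1285. Xist was thus high with almost no Ddx3y in library 1 of both groups, low with high Ddx3y in Lrig1 ablation 2, and present together with Ddx3y in K14 ablation 2. The part of this difference in any result was not tested.

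Values are normalised read counts per gene, given for library 1 and then library 2 of a group. Differences are Lrig1 ablation minus K14 ablation of log2(value + 1), a scale that makes differences of low genes look smaller than they are, with the SE of limma's fit to the 4 ablation libraries. No gene passed an adjusted p of 0.05 in that fit, which is a share of 0% (limma: 0 of 17084, smallest adjusted p = 0.256, 1277 or 7.47% at an unadjusted p under 0.05). The count was also 0 with edgeR, where 1306 genes had an unadjusted p under 0.05. DESeq2 called 258 genes, 181 higher (1.06%) and 77 lower (0.451%) in Lrig1 ablation. Limma with the spread estimated over all 8 libraries called 121, 84 higher (0.463%) and 37 lower (0.204%). That spread is pooled with the control pairs, which were far more alike, so it is too small for this comparison. The p-values it gives below are a description only. The limma count was 306 without K14 ablation 1 and 400 without K14 ablation 2, and 0 without either Lrig1 ablation library. Genes below are therefore described by their values in each library, and the word "apart" is used for a gene whose 2 libraries of one population both lay at least 1 log2 unit above both libraries of the other. By that rule 304 genes (1.78%) were apart and higher in Lrig1 ablation and 123 (0.72%) were apart and lower.

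Genes of the hair follicle bulge and germ were higher in the cells labelled Lrig1. Of 19 tested members of 20, 13 were higher in both Lrig1 ablation libraries than in either K14 ablation library and 0 were lower in both, where over all tested genes the shares are 18.7% higher and 20.5% lower. Of these members 6 were apart, and the median difference of the list was 1.22, against -0.03 over all tested genes. Lhx2 (ENSMUSG00000000247, GRCm38 chr2:38339281-38369733, plus strand), a homeobox factor that keeps bulge stem cells in their state, was 27.6 and 41.8 in K14 ablation and 208 and 328 in Lrig1 ablation. All of its Lrig1 ablation values lay well above the K14 ones, with a difference of 2.90 ± 0.38 (SE). The adjusted p was 0.256 in limma, 0.0236 in limma with the spread of all 8 libraries, 0.305 in edgeR and 1.99e-07 in DESeq2. Tbx1, a T-box factor of bulge cells, was 42.5 and 69.7 against 209 and 370. Pthlh, a secreted peptide of the follicle that acts on the parathyroid hormone receptor, was 26.9 and 35.4 against 117 and 276. Lgr5 (ENSMUSG00000020140, GRCm38 chr10:115450311-115587780, minus strand), the R-spondin receptor of cycling follicle stem cells, was 63.7 and 30.02 against 181 and 493. None of these pairs overlapped, and the gap was narrowest for Lgr5, whose difference was 2.74 ± 0.56 (limma adjusted p = 0.339, or 0.067 with the spread of all 8 libraries). Postn (ENSMUSG00000027750, GRCm38 chr3:54361109-54391037, plus strand), a secreted matrix protein, was the most abundant member, at 2549 and 2366 against 7563 and 7655. The libraries of each group lay close to each other, and the difference was 1.63 ± 0.26 (limma adjusted p = 0.259; 0.0127 with the spread of all 8 libraries). Cd34, a surface sialomucin used to sort bulge cells, was low throughout, at 25.5 and 12.9 against 54.1 and 35.0. The list's median was between 0.95 and 1.27 when any 1 of the 4 libraries was left out.

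**Figure D1:**
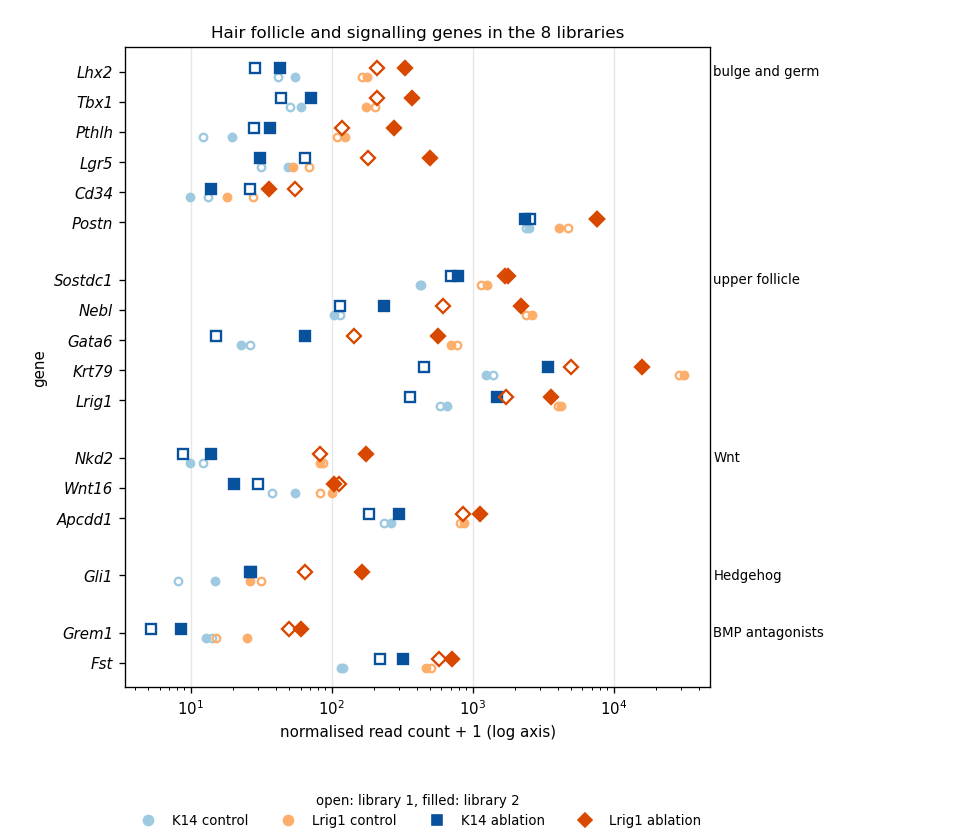
Normalised read count + 1 (log axis) of follicle, Wnt, Hedgehog and BMP antagonist genes in all 8 libraries, with circles for controls, squares for K14 ablation and diamonds for Lrig1 ablation, and open symbols for library 1. For Lhx2, Tbx1, Postn and Nkd2 both Lrig1 ablation libraries lie to the right of both K14 ablation libraries, while for Krt79 and Lrig1 the second K14 ablation library reaches close to the first Lrig1 ablation library.

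The upper follicle list had the same direction with a wider spread within groups. Of 15 tested members of 16, 12 were higher in both Lrig1 ablation libraries and 1 was lower in both, with a median of 1.77. Lrig1 itself (ENSMUSG00000030029, GRCm38 chr6:94604529-94700158, minus strand) was 357 and 1486 in K14 ablation and 1734 and 3575 in Lrig1 ablation. K14 ablation 2 came close to Lrig1 ablation 1, and the difference of 1.77 ± 0.66 did not pass (limma adjusted p = 0.639, or 0.212 with the spread of all 8 libraries). Krt79, the keratin of the follicle opening and the upper duct, was 446 and 3443 against 4961 and 15797, again with the lowest value in K14 ablation 1 and the highest in Lrig1 ablation 2. Gata6, a transcription factor of the sebaceous duct, was 14.2 and 63.3 against 144 and 567. Nebl, which encodes the actin-binding protein nebulette, was 114 and 234 against 611 and 2196. Sostdc1, a secreted inhibitor of BMP and Wnt signalling, was tighter, at 696 and 786 against 1684 and 1764, a difference of 1.22 ± 0.22 (limma adjusted p = 0.281). Lgr6, a relative of Lgr5 found in the isthmus and in basal epidermis, was 430 and 823 against 926 and 904 and hardly separated the groups. Krt15, a keratin of basal and bulge cells, was 3875 and 3900 against 6735 and 5928. Its difference was 0.70 ± 0.27 (limma adjusted p = 0.650, or 0.0914 with the spread of all 8 libraries). The upper follicle median was 1.13 without K14 ablation 1 and 2.37 without K14 ablation 2.

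Several signalling genes of the follicle were far apart, although the Wnt and BMP lists as a whole were split. Wnt signals are held back by feedback inhibitors that the pathway itself switches on, and Hedgehog signals act through the Gli factors. Nkd2 (ENSMUSG00000021567, GRCm38 chr13:73818534-73847631, minus strand), an inhibitor of the Wnt transducer Dishevelled, was 7.78 and 12.9 in K14 ablation and 80.8 and 174 in Lrig1 ablation. Its difference was 3.44 ± 0.53 (limma adjusted p = 0.256; 0.0265 with the spread of all 8 libraries). Apcdd1, a membrane inhibitor of Wnt receptors, was 184 and 298 against 857 and 1134, and the ligand gene Wnt16 was 29.0 and 19.3 against 112 and 102. These 3 genes were well apart, but the Wnt list of 24 tested members had 10 higher and 6 lower in both libraries and a median of 0.03. In the Hedgehog list, 7 of 11 tested members were higher in both Lrig1 ablation libraries and 1 was lower, with a median of 0.54. Gli1, a target and effector of the pathway, was 25.5 and 25.7 against 63.0 and 162. It was highest in Lrig1 ablation 2, and the Hedgehog median was 0.15 with a stricter filter on low values, 0.31 without Lrig1 ablation 1 and 0.35 without Lrig1 ablation 2. Among BMP pathway genes, the antagonist Grem1 was 4.25 and 7.50 against 48.8 and 59.7, the antagonist Fst was 217 and 321 against 572 and 713, and the ligand Bmp4 was 84.2 and 81.5 against 41.7 and 18.3. The 25 tested genes of that list were split, with 8 higher, 7 lower and a median of 0.06.

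By the size of the gap between the nearest libraries 12 genes were picked in this direction, Nkd2 and Grem1 among them. Serpinb11 (ENSMUSG00000026327, GRCm38 chr1:107361198-107380475, plus strand), a clade B serpin, was 1.42 and 3.22 in K14 ablation and 43.5 and 57.3 in Lrig1 ablation, the widest gap in this direction among genes with a mean of at least 50 in Lrig1 ablation. Slc14a1, a urea transporter, was 7.78 and 3.22 against 76.3 and 83.6. Both rested on 3 reads in K14 ablation 2, so the size of their differences depends on the pseudocount of 1. Adamts5, a protease that cuts aggrecan and versican, was 8.49 and 13.9 against 80.8 and 311. Egfl6, a basement membrane protein of the upper bulge, was 5.66 and 17.2 against 96.7 and 106. Tenm3, a teneurin adhesion protein, was 26.2 and 9.65 against 143 and 202. The groups were more than 2 log2 units apart for each of these genes. The size of the gap also picked C9, Mark1, Rnf150, Lmcd1 and Pclo, with differences from 2.84 for Lmcd1 to 3.68 for Pclo. Ctgf, a matricellular protein and YAP and TAZ target, was 146 and 324 against 1101 and 1370. Cyr61, a related protein and target, went the other way, at 3772 and 4828 against 2322 and 2274, and the 20 tested YAP and TAZ targets had 6 higher, 7 lower and a median of -0.07, which was 0.02 with upper quartile scaling and 0.06 with CPM scaling.

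Wound keratins and genes of activated keratinocytes were lower in the cells labelled Lrig1. Of 19 tested members of 20, 10 were lower in both Lrig1 ablation libraries and 0 were higher in both, with a median of -0.996. Krt16 (ENSMUSG00000053797, GRCm38 chr11:100246091-100248902, minus strand), a keratin of injured and hyperproliferative epidermis, was 8310 and 5935 in K14 ablation and 1717 and 583 in Lrig1 ablation. The groups were apart, with a difference of -2.81 ± 0.50 (SE). The adjusted p was 0.273 in limma, 0.0358 in limma with the spread of all 8 libraries, 0.349 in edgeR and 1.06e-05 in DESeq2. Krt6a, its usual partner, was 11407 and 8978 against 7754 and 3487, so Lrig1 ablation 1 lay near K14 ablation 2. Krt17, which is found in follicles and in stressed epidermis, was 5722 and 7274 against 7190 and 7359 and overlapped. The cystatin gene Stfa1 was 19.1 and 8.58 against 3.55 and 1.59. EGF receptor ligands of the activated state were also lower: Areg was 424 and 163 against 94.1 and 94.7, Hbegf 1160 and 759 against 493 and 466, Ereg 314 and 111 against 54.1 and 34.2, and Epgn 694 and 594 against 325 and 130. For each of these 4 ligands the groups did not overlap. In the wider list of 23 EGF receptor ligands and feedback genes, 3 were higher, 6 were lower and the median was 0.04.

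The basement membrane and matrix list was mixed: of its 28 tested genes 9 were lower and 3 were higher in both Lrig1 ablation libraries, with a median of -0.34, which was -0.04 without Lrig1 ablation 2 and -0.77 without Lrig1 ablation 1. Postn, given above, was the member with the highest difference, and Tnc, Mmp9 and Mmp10 lay on the lower side. Tnc (ENSMUSG00000028364, GRCm38 chr4:63959785-64047015, minus strand), the adhesion-modulating glycoprotein tenascin C, was 2524 and 2637 in K14 ablation and 871 and 403 in Lrig1 ablation, a difference of -2.12 ± 0.37 (limma adjusted p = 0.273). Mmp9, a gelatinase, was 39.6 and 101 against 8.88 and 0.796, and the stromelysin gene Mmp10 was 12.03 and 17.2 against 0.887 and 0. The K14 ablation libraries were higher in all 3 genes, but both proteases rested on a single read or none in Lrig1 ablation 2. Pdpn, a mucin-like glycoprotein of migrating keratinocytes and of lymphatic vessels, was 84.9 and 81.5 against 22.2 and 5.57.

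**Figure D2:**
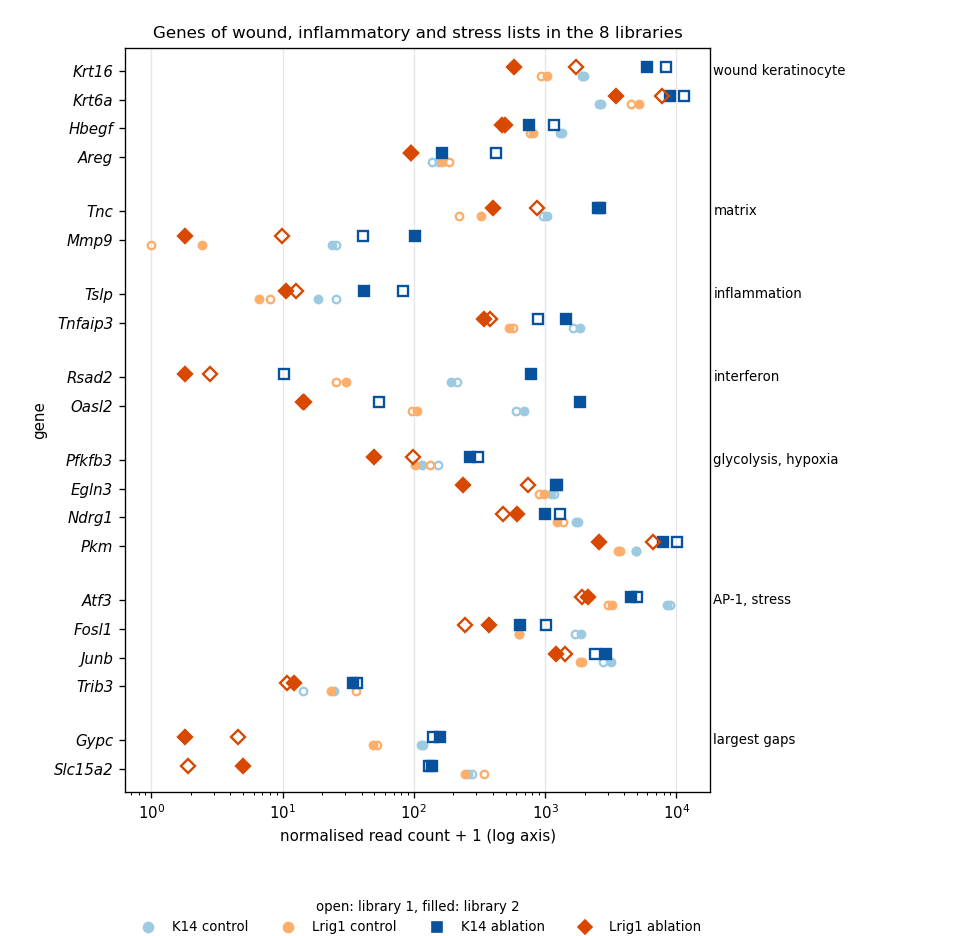
Normalised read count + 1 (log axis) of genes of the wound keratinocyte, matrix, inflammation, interferon, glycolysis and stress lists and of the genes with the largest gaps, in all 8 libraries, with symbols as in the plot of follicle genes. The diamonds of Lrig1 ablation lie to the left of the squares of K14 ablation. In the interferon genes the filled square of K14 ablation 2 lies furthest right, with the K14 controls next. The open square of K14 ablation 1 lies to the left of all controls.

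Cytokine and inflammation genes were lower in 17 of 24 tested members and higher in 2, in both libraries each time, with a median of -0.98. The list has 30 members, and 6 did not reach the filter on low values. Keratinocyte cytokines signal through the transcription factor NF-kappaB, which in turn switches on its own inhibitors Nfkbia and Tnfaip3. Tnfaip3 (ENSMUSG00000019850, GRCm38 chr10:19000910-19015657, minus strand), the ubiquitin-editing enzyme A20, was 884 and 1436 in K14 ablation and 382 and 342 in Lrig1 ablation. Its difference was -1.64 ± 0.29 (limma adjusted p = 0.273; 0.0290 with the spread of all 8 libraries). Nfkbia, the inhibitor that holds NF-kappaB in the cytoplasm, was 1974 and 2327 against 1201 and 1148, and is named here after its values were seen. Tslp, a cytokine by which keratinocytes act on dendritic and T helper cells, was 81.4 and 40.7 against 11.5 and 9.55. The cytokine gene Il19 was 12.7 and 23.6 against 1.77 and 0, and the atypical inhibitor gene Nfkbiz was 1944 and 2176 against 1013 and 1522. One of the 2 members in the other direction was Ccl27a, a skin chemokine that draws T cells, at 19.1 and 42.9 against 96.7 and 161. The list's median was -1.13 to -0.81 when any 1 of the 4 libraries was left out.

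Interferon response genes were lower in both Lrig1 ablation libraries in 15 of 23 tested members, of 31 in the table, and higher in 0, with a median of -2.51, or -1.35 with a stricter filter on low values. Type I interferons act through a surface receptor on antiviral genes that carry the interferon-stimulated response element. Rsad2, the antiviral enzyme viperin (ENSMUSG00000020641, GRCm38 chr12:26442746-26456452, minus strand), was 9.20 and 780 in K14 ablation and 1.77 and 0.796 in Lrig1 ablation, the last 2 values being 2 reads and 1 read. Oasl2, an oligoadenylate synthetase-like protein, was 53.1 and 1858 against 13.3 and 13.5. K14 ablation 2 was far above the other ablation libraries in both genes, and K14 ablation 1 was nearer to Lrig1 ablation than to its own pair. In K14 control Rsad2 was 213 and 192 and Oasl2 602 and 695, between the K14 ablation libraries. The mean log2(value + 1) of the list was 7.69 and 7.83 in K14 control and 5.83 and 6.07 in Lrig1 control. The differences had wide errors, -5.32 ± 1.79 for Rsad2 and -4.46 ± 1.43 for Oasl2 (limma adjusted p = 0.583 and 0.568). With the spread of all 8 libraries the limma adjusted p was 0.179 and 0.169. The mean log2(value + 1) of the list was 5.13 and 9.22 in K14 ablation and 4.55 and 4.58 in Lrig1 ablation, and its median difference was -0.33 without K14 ablation 2 against -4.08 without K14 ablation 1. Oas1a, Oas1g and Tmem173, the DNA-sensing adaptor STING, had the same pattern, with 233, 124 and 324 in K14 ablation 2 and at most 35.4 in any other ablation library. MHC class I presentation genes, which interferon also raises, had 1 of 16 lower in both libraries, and their mean log2(value + 1) was 7.13 and 10.1 in K14 ablation, below and above the 8.01 and 7.98 of Lrig1 ablation. That list's median was -1.93 without K14 ablation 1 and 0.87 without K14 ablation 2.

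**Figure D3:**
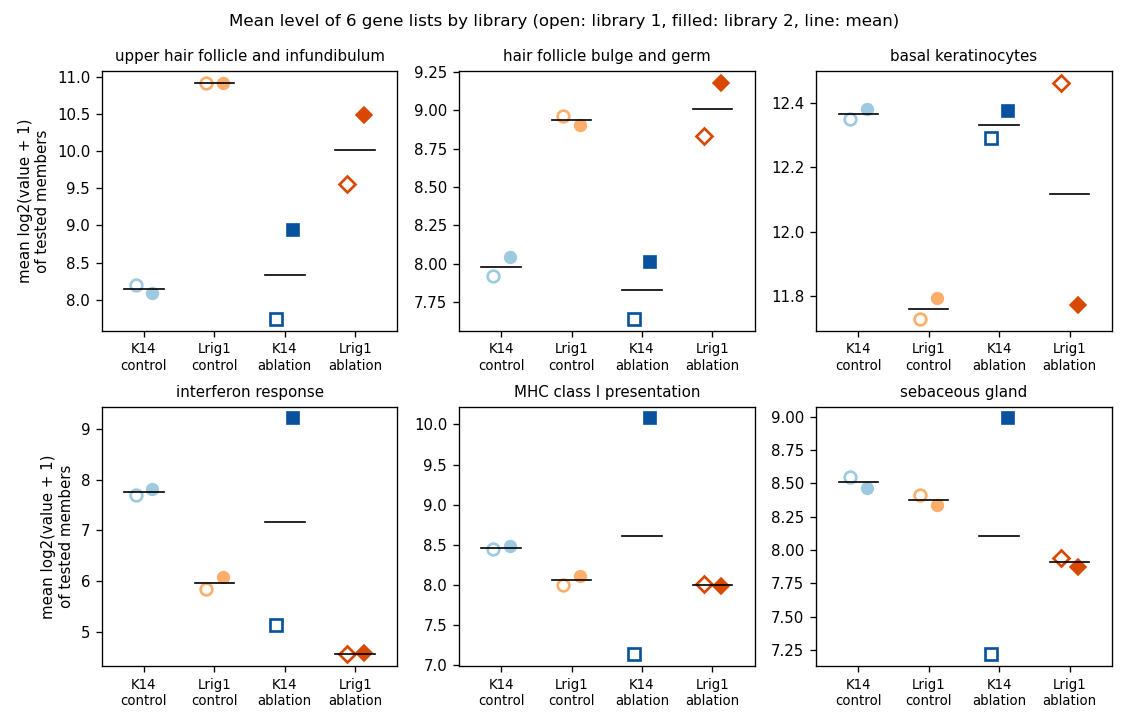
Mean log2(value + 1) over the tested members of 6 gene lists in each library, with the line at the mean of the 2 libraries of a group and a y axis of its own for each list. The bulge and upper follicle lists are higher in both Lrig1 ablation libraries, while interferon, MHC class I and sebaceous gland lists split the K14 ablation pair, with K14 ablation 1 low and K14 ablation 2 high.

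The promoters of Rsad2, Oasl2, Ifit1, Tnfaip3 and Nfkbia were searched for sequence elements of their pathways, and the 3 with a match are printed. Each is the 250 bases before the gene's start in RefSeq (GRCm38.p6), 5′ to 3′ on the gene's strand, in lower case with matches in capitals. The letters searched on both strands were GAAANNGAA, from the core of the interferon-stimulated response element, for Rsad2 and Ifit1, and GGGANNTTC, from the kappaB element, for Nfkbia. Neither motif contains the other. Ifit1, an antiviral RNA-binding protein, is named here after its values were seen and was 9.90 and 1047 in K14 ablation and 3.55 and 7.16 in Lrig1 ablation.
Rsad2 (chr12:26456453-26456702, minus strand): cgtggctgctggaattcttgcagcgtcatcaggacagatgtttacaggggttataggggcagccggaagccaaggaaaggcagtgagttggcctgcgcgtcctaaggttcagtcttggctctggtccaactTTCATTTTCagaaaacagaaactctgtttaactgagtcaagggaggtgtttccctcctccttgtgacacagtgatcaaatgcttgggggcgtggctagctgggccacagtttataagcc
Ifit1 (chr19:34640639-34640888, plus strand): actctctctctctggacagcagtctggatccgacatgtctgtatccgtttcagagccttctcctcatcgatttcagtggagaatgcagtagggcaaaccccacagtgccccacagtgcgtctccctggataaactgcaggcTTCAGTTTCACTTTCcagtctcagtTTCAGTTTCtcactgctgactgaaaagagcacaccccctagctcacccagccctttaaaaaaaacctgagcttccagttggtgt
Nfkbia (chr12:55492648-55492897, minus strand): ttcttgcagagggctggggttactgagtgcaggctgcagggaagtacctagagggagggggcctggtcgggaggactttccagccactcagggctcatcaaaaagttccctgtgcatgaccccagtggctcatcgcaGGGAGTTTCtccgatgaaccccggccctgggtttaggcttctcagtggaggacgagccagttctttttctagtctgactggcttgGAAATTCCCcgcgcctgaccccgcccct
The first core stands once in the Rsad2 window and 3 times in the Ifit1 window, where 2 of the matches overlap, and the second 2 times in the Nfkbia window. Over all 32851 RefSeq windows of this length, 7.13% hold the first core and 3.23% the second. Counted by gene, with a match in any of its windows, the shares are 8.18% and 3.7% of 27025 genes. The list counts that follow are also by gene. Of the tested interferon genes with a promoter entry, 9 of 17 hold the first core, and of the tested cytokine and inflammation genes 6 of 19 hold the second. No match was found for the first core in the Oasl2 window or for the second in the Tnfaip3 window. That says only that these letters are not in those windows. The RefSeq start used for Tnfaip3 lies 247 bases inside the gene by its GENCODE coordinates, so most of that window is within the gene. The part of these elements in any difference was not tested.

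Glycolysis and hypoxia genes were lower in Lrig1 ablation, in 21 of 26 tested members in both libraries, and all 26 members had a negative difference, with a median of -0.89. Glycolytic enzymes turn glucose into lactate and are switched on by the hypoxia factor HIF. Pfkfb3 (ENSMUSG00000026773, GRCm38 chr2:11471433-11554077, minus strand), the enzyme that sets the pace of glycolysis through fructose bisphosphate, was 309 and 269 in K14 ablation and 96.7 and 48.6 in Lrig1 ablation. Its difference was -2.06 ± 0.38 (limma adjusted p = 0.282; 0.0424 with the spread of all 8 libraries). Egln3, an oxygen-sensing hydroxylase of HIF, was 1218 and 1232 against 744 and 235. Vegfa, the growth factor of blood vessels, was 531 and 612 against 270 and 334, and Ndrg1 was 1309 and 995 against 476 and 605. Pkm, pyruvate kinase and the most abundant member, was 10161 and 7917 against 6672 and 2562. In Pkm and Egln3 the low value is that of Lrig1 ablation 2, and the list's median was -0.38 without that library and -1.40 without Lrig1 ablation 1. Nuclear-encoded genes of oxidative phosphorylation, the respiratory chain, were also negative in all 22 tested members, but only 4 were lower in both libraries and the median of -0.46 became -0.01 without Lrig1 ablation 2 and -0.88 without Lrig1 ablation 1. The mitochondrially encoded subunits went the other way, with 6 of 12 higher in both Lrig1 ablation libraries and a median of 0.50; mt-Nd2 was 17550 and 12645 against 20477 and 27778.

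AP-1 and immediate early genes, which cell dissociation as well as injury can switch on, were lower in 15 of 24 tested members and higher in 0, with a median of -0.67. Atf3 (ENSMUSG00000026628, GRCm38 chr1:191170296-191218039, minus strand), a stress-induced factor of the AP-1 family, was 5009 and 4490 in K14 ablation and 1925 and 2140 in Lrig1 ablation. Its difference was -1.22 ± 0.25 (limma adjusted p = 0.339; 0.0255 with the spread of all 8 libraries). Fosl1, the migration-linked AP-1 subunit Fra-1, was 1008 and 649 against 242 and 373. Junb was 2394 and 2889 against 1409 and 1204, and Fos was 12363 and 11009 against 7091 and 6108. All 4 genes were lower in both Lrig1 ablation libraries, and the median of the list was -0.39 without Lrig1 ablation 1 and -0.73 without Lrig1 ablation 2. Unfolded protein and integrated stress genes were lower in 13 of 19 tested members and higher in 0, with a smaller median of -0.45. Trib3, a pseudokinase induced by the stress factor Atf4, was 36.1 and 33.2 against 9.76 and 11.1, and Sesn2, a stress-induced regulator of mTORC1, was 192 and 220 against 136 and 150.

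**Figure D4:**
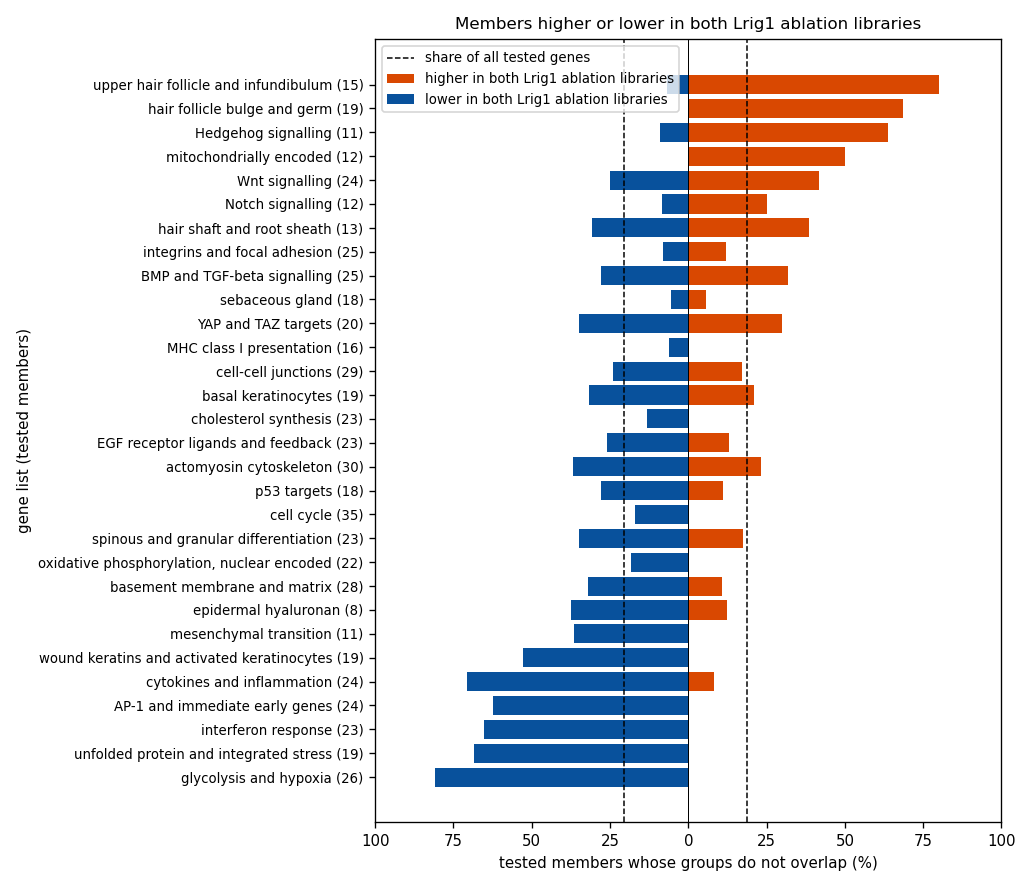
Share of tested members of 30 gene lists that were higher (right, orange) or lower (left, blue) in both Lrig1 ablation libraries than in either K14 ablation library, with dashed lines at the 18.7 and 20.5% of all tested genes. Upper follicle and bulge lists stand at the top, and glycolysis, stress, interferon, AP-1, cytokine and wound lists at the bottom.

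The widest gaps of all lay in a pair of genes that were nearly absent from Lrig1 ablation. Slc15a2 (ENSMUSG00000022899, GRCm38 chr16:36750177-36784962, minus strand), a proton-coupled transporter of small peptides, was 130 and 136 in K14 ablation and 0.887 and 3.98 in Lrig1 ablation, which are 1 and 5 reads. Gypc (ENSMUSG00000090523), a glycophorin that ties the membrane to the cytoskeleton, was 139 and 157 against 3.55 and 0.796, which are 4 reads and 1 read. Both pairs were alike within each group and far apart between groups. The differences of -5.45 ± 0.61 and -5.70 ± 0.60 depend on the pseudocount (limma adjusted p = 0.256 for each; 0.00948 for each with the spread of all 8 libraries). In the controls Slc15a2 was 278 and 256 in K14 and 340 and 245 in Lrig1, and Gypc was 113 and 117 in K14 and 51.2 and 47.9 in Lrig1. Other genes with large gaps in this direction were Sprr2a3, a cornified envelope protein, at 229 and 86.8 against 25.7 and 6.37, and Dhrs9, a retinol dehydrogenase, at 84.9 and 67.5 against 14.2 and 20.7. The receptor gene Gpr35 was 60.1 and 97.6 against 18.6 and 11.1.

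Basal, differentiation and cell cycle genes did not order the groups so clearly. The basal keratin Krt5 was 80925 and 80623 in K14 ablation and 78928 and 29637 in Lrig1 ablation, and its partner Krt14 was 79645 and 75873 against 69896 and 28052. In both genes Lrig1 ablation 1 stood close to K14 ablation and Lrig1 ablation 2 well below. The basal list had a median of -0.37, of 0.07 without Lrig1 ablation 2 and of -0.89 without Lrig1 ablation 1. Of the keratin pair of the first suprabasal layers, Krt1 was 42464 and 24209 against 13588 and 11995, and Krt10 was 33301 and 25807 against 16215 and 16815. Both were lower in both Lrig1 ablation libraries. Genes of the granular and cornified layers were split. Those higher in both Lrig1 ablation libraries included the corneodesmosome gene Cdsn at 19.8 and 24.7 against 57.7 and 185, the protease gene Klk7 at 11.3 and 41.8 against 89.6 and 663, and the filaggrin gene Flg at 2.12 and 2.14 against 7.99 and 97.1. Those lower in both included the transglutaminase gene Tgm3 at 3541 and 2444 against 1803 and 454, Casp14, a protease of cornifying cells, at 284 and 197 against 172 and 168, the lipoxygenase gene Aloxe3 at 81.4 and 90.1 against 52.4 and 75.6, and Elovl4, which elongates barrier lipids, at 658 and 654 against 478 and 646. The Flg values are 3 and 2 reads in K14 ablation and 9 and 122 in Lrig1 ablation, so the size of its difference rests on Lrig1 ablation 2. Of the 23 tested differentiation genes, 8 were lower and 4 were higher in both libraries. Their median of -0.11 was -0.33 with a stricter filter, -0.01 with upper quartile and 0.03 with CPM scaling, and between -0.39 and 0.02 with 1 library left out. Mki67, a marker of cycling cells, was 10512 and 5137 against 8288 and 4730 and overlapped. Of 35 cell cycle genes 34 had a negative difference, but 6 were lower in both libraries and the median of -0.47 was -0.01 without Lrig1 ablation 2 and -0.99 without Lrig1 ablation 1.

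Markers of other cell types moved with some of these results. Among 11 tested myeloid and Langerhans cell genes, 7 were lower in both Lrig1 ablation libraries and 1 was higher, with a median of -1.25. Of these 7, 4 belong to MHC class II presentation: H2-Aa, H2-Ab1, H2-Eb1 and the invariant chain Cd74. Cd74 was 144 and 944 in K14 ablation and 66.6 and 66.9 in Lrig1 ablation, and H2-Aa was 70.8 and 315 against 30.2 and 19.1, both highest in K14 ablation 2 like the interferon genes. The median was -0.20 with a stricter filter on low values. The summed level of the 17 genes on that list was 959 and 2380 in K14 ablation and 1140 and 1496 in Lrig1 ablation. Epcam, which epithelial cells also express, made up much of it, at 267 and 521 against 753 and 1134, and without Epcam the sums were 692 and 1859 against 388 and 363, lower in both Lrig1 ablation libraries. In addition 2 of the listed genes were at 0 in each Lrig1 ablation library. Fibroblast genes were higher in both Lrig1 ablation libraries in 5 of 8 tested members of 14, with Fbln1 at 325 and 321 against 595 and 556 and Col6a1 at 48.1 and 84.7 against 238 and 157, while Thy1 was lower at 542 and 685 against 281 and 86.0. The summed fibroblast level was 1075 and 1249 against 1348 and 1184. Melanocyte genes were higher in 3 of 6 tested members, with a summed level of 326 and 345 against 433 and 657. Among endothelial and mural genes 6 of 17 were tested, and 2 were higher and 0 lower in both libraries. Of these 6 genes, 3 had a positive and 3 a negative difference, from -1.51 to 2.33, with a median of 0.05. The highest was Lyve1, a hyaluronan receptor of lymphatic vessels, at 9.20 and 13.9 against 49.7 and 74.8. The endothelial genes Cdh5 and Plvap did not reach the filter on low values in the ablation libraries and are not among these 6. They were low and went the other way, at 7.08 and 8.58 against 4.44 and 3.18, and 5.66 and 10.7 against 3.55 and 2.39. The part of these cell types in the matrix, interferon and inflammation results was not tested. In bulk RNA, fewer cells of a type and less RNA per cell cannot be told apart.

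The same populations were then compared in the 4 control libraries, which share no library with the ablation comparison. Mitochondrially encoded genes took 2.91 and 2.90% of K14 control and 6.29 and 6.89% of Lrig1 control. Summed endothelial and mural genes were 806 and 871 against 2152.5 and 2293.5, and myeloid genes without Epcam 425 and 599 against 1147 and 1618. Fibroblast sums were 1030 and 1107 against 930 and 1040. The part of these differences in the control calls was not tested. There limma called 7323 of 17057 genes, 3819 higher in Lrig1 (22.4%) and 3504 lower (20.5%). Of the 304 genes apart and higher after ablation, 272 had a positive difference in the controls and 197, or 64.8%, were called higher there, where the share over all genes tested after ablation was 20.6%. Of the 123 genes apart and lower after ablation, 82 had a negative difference in the controls, 44 (35.8%, against 19.8% of all) were called lower and 22 were called higher. The median difference of the higher genes was 2.26 after ablation and 1.68 in the controls, and that of the lower genes was -2.09 and -0.54. Lhx2 differed by 1.83 and Postn by 0.84 between the control populations, in the direction seen after ablation. For Krt16 and Pfkfb3 the control differences were -0.99 and -0.18, smaller in size than the -2.81 and -2.06 after ablation. Neither gene passed the test of that change over all 8 libraries, described below (limma adjusted p = 0.231 and 0.137). The wound and glycolysis lists had control medians of -0.10 and -0.40, against -0.996 and -0.89. In the same test 1 member of the wound list and 0 of the glycolysis list passed. Other lower lists already differed in the controls. Their control medians were -0.99 for cytokines, -0.70 for AP-1 and -1.92 for interferon, against -0.98, -0.67 and -2.51 after ablation. Of the 23 tested interferon genes, 21 were called lower in Lrig1 control. For the upper follicle list the control median of 2.73 was larger than the 1.77 after ablation. Across the 17084 genes the differences after ablation and in the controls had a Pearson correlation of 0.44 and a Spearman correlation of 0.28, as a description, since genes are not independent replicates.

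**Figure D5:**
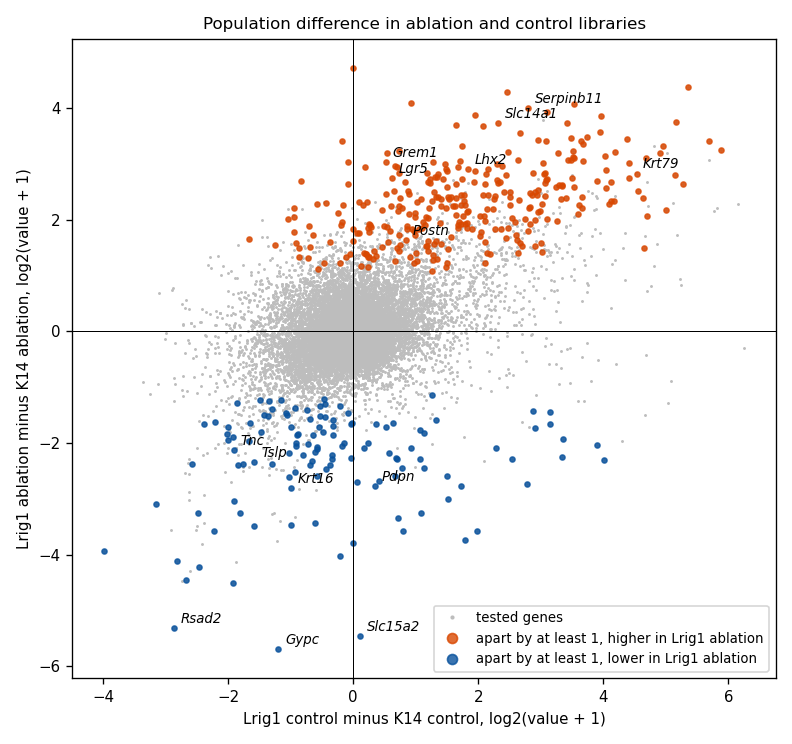
Difference between Lrig1 and K14 on the log2(value + 1) scale in the ablation libraries (y axis) against the control libraries (x axis) for 17084 genes, with the 304 genes apart and higher in Lrig1 ablation in orange and the 123 apart and lower in blue. Orange genes lie mostly to the right of 0 and blue genes spread to both sides, with Slc15a2 and Gypc lowest.

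Whether the population difference itself changed with ablation was tested with limma over all 8 libraries. Of 18140 genes, 36 passed, 2 with a higher difference after ablation (0.011%) and 34 with a lower one (0.187%). Krt17 was 1901 and 2082 in K14 control and 12654 and 12357 in Lrig1 control, and the gap closed after ablation, by -2.48 on the log2 scale (limma adjusted p = 0.0384). Slc15a2, level between the control populations, differed by -5.56 ± 0.60 in this test (limma adjusted p = 0.0384), and Gypc by -4.50 (limma adjusted p = 0.0401). The 2 genes in the other direction, 4930517G19Rik and Gm29233, are named after their values were seen. 4930517G19Rik was 321 and 330 in K14 control, 64.0 and 77.5 in Lrig1 control, 86.3 and 75.0 in K14 ablation and 80.8 and 93.1 in Lrig1 ablation. Gm29233 was 1611 and 1624, 291 and 334, 529 and 618, and 456 and 656 in the same order of groups, so both overlapped after ablation. The count was 0 without any 1 of the 4 control libraries, 83 without K14 ablation 1, 144 without K14 ablation 2, 2022 without Lrig1 ablation 1 and 551 without Lrig1 ablation 2.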

How the data were processed

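RNA of sorted epidermal cells was sequenced in 8 libraries. Per the submitters' processing notes, Trimmomatic, STAR, Picard and HTSeq (version 0.11.1) were used on GRCm38; no settings, strand included, are stated in the labels. The authors deposited 1 table with a normalised signal for each of 32574 genes; 100% of its values were whole reads divided by a size factor, within 0.001. The ablation columns are named in other words than the labels and were matched to the ablation groups.

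Genes needed at least 1e-06 of the library total in 2 of the 4 ablation libraries. Tests used limma 3.58.1 (R 4.3.3, variance trend) on log2(value + 1) of those 4 libraries, with Benjamini-Hochberg adjustment over all genes and a threshold of 0.05. The other fits were the control libraries alone, the difference of differences over all 8, edgeR 4.0.16 and DESeq2 1.42.0 on the recovered reads, other pseudocounts, filters and scalings, and each library left out. With 2 libraries against 2, an exact permutation test of a single gene cannot go below 0.333. Of these fits only the limma fit of 2 libraries against 2 was tested on simulated reads, with 200 genes changed by 2 log2 units. It called 132 of them (66%) and 14 unchanged genes in the ablation setting. In the control setting it called 200 and 20.

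The members, the 43 gene lists and the tests were chosen with earlier results of these data known. Named genes are, in each direction, the 12 with the widest gap between the nearest libraries and a mean of at least 50, up to 4 members a list by that gap and its most abundant member, and a short set of epidermal markers. Tgm3, Casp14, Aloxe3, Elovl4 and Krt75 were named outside that rule. Coordinates are from GENCODE M21. Of the symbols 61 occur more than once. A floor of 3 reads is a normalised count of 2.12 to 3.22 in the ablation libraries and covers counting error only. A few genes that the rule for named genes selects are not reported here.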

Additional observations from a re-analysis of the deposited data

Results flagged for a closer look

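The difference between Lrig1 and K14 after ablation was set against the same difference in the control libraries, with limma over all 8 libraries, and 36 genes passed (limma). The 7 genes described first had an adjusted p of 0.0384 to 0.0401 in limma. Sele (E-selectin, through which endothelium captures leukocytes) was 218 and 189 in Lrig1 control and 0 in both Lrig1 ablation libraries, with 3.05 and 5.91 in K14 control and 6.37 and 1.07 in K14 ablation, a change of -7.23 in the log2 difference. The endothelial genes Emcn, Cdh5 and Plvap had changes of -6.23, -5.42 and -5.06. Each of these 4 genes was high in Lrig1 control alone, at 50.1 to 218, and at most 10.7 in every other library. Ctss, a lysosomal protease of myeloid cells, had a change of -5.93, and was highest in Lrig1 control (82.7 and 142), then K14 ablation (38.2 and 54.7), Lrig1 ablation (12.4 and 8.76) and K14 control (5.08 and 7.88). Sprr2b, a cornified envelope gene, had a change of -4.81, with 183 and 149 in Lrig1 control and at most 26.4 elsewhere.

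The change of -5.56 for Slc15a2 differs from these in its source. It was 245 to 340 in the 4 control libraries, 130 and 136 in the K14 ablation pair, and 0.887 and 3.98 in the Lrig1 ablation pair, which are 1 and 5 reads. None of these calls held when any 1 of the 4 control libraries was left out, since 0 genes passed there.

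Other genes of the text also passed this test in limma. Vim, an intermediate filament of mesenchymal cells, had the smallest adjusted p of all (0.0272) and is named after its values were seen: it was 38.6 and 54.2 in K14 control, 611 and 816 in Lrig1 control, 173 and 143 in K14 ablation and 95.8 and 125 in Lrig1 ablation, a change of -4.44. The changes of Gypc, Krt17 and Elovl4 were -4.50, -2.48 and -1.96, and those of Gm29233 and 4930517G19Rik were 2.31 and 2.30.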

How the results depend on the processing

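The ablation comparison called 0 genes with other pseudocounts, filters, scalings, a robust variance prior and edgeR, 121 with the spread of all 8 libraries, 31 with that spread weighted by group, and 258 with DESeq2; leaving out 1 library gave 0 to 400. Over all genes the deviations of same-numbered libraries were hardly correlated (0.0118 in ablation and -0.0278 in control). That does not decide whether the numbers pair libraries, because a pairing could act on few genes. Xist and Ddx3y split by number in both ablation pairs. A replicate block gave 139 genes for the ablation comparison, 1 for the difference of differences and 7433 for the controls. The difference of differences called 36 genes, 83 with a pseudocount of 5, 146 with weights by group (an alternative chosen after seeing the data), and 0 to 2022 with 1 library left out. The genes apart and higher were 204 to 350 under other pseudocounts and scalings, 587 without a filter, 91 with a stricter filter and 225 to 1117 with 1 library left out. Those apart and lower were 71 with a pseudocount of 5, 327 without a filter, 35 with a stricter filter and 218 to 915 with 1 library left out. Mki67 turned from -0.23 to 0.29 without K14 ablation 1 and to 0.17 without Lrig1 ablation 2, in a range of -0.75 to 0.29 with 1 library left out. Ddx3y, at -0.0069, was 0.28 with a pseudocount of 5, 0.018 with TMM, 0.091 with upper quartile and 0.11 with CPM scaling, 0.81 in edgeR, 0.80 in DESeq2 and -4.41 to 5.16 with 1 library left out, where it did not reach the filter without K14 ablation 2 or Lrig1 ablation 2. Xist, at -3.40, was 0.82 without Lrig1 ablation 2, in a range of -7.63 to 0.82. Gm29233, at -0.063, was 0.033 with upper quartile and 0.069 with CPM scaling, and -0.33 to 0.20 with 1 library left out, including 0.048 without K14 ablation 2. None of the other genes checked turned in direction. The causes were not tested, beyond the fewer or more genes that the filters admit. With 2 libraries a group the spread rests on few degrees of freedom, and where 1 library is left out the lone library is assumed to vary like the other group.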

Other observations

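Other epidermal gene lists were split, and single members are given for their values only. Over all tested genes 18.7% were higher and 20.5% lower in both Lrig1 ablation libraries. The shares were 17.2 and 24.1% of junction genes, 12 and 8% of integrin genes, and 11.1 and 27.8% of p53 targets. The higher shares of these lists were thus below that of all genes. Of the claudins, which seal tight junctions, Cldn1 was 894 and 1291 in K14 ablation and 2119 and 3849 in Lrig1 ablation. Cldn8 was 27.6 and 86.8 against 109 and 232. Jup, the plakoglobin of desmosomes, was lower, at 10252 and 10152 against 7578 and 6487. Of the 29 tested junction genes, 5 were higher and 7 were lower in both libraries. Itgb8, an integrin chain that activates latent TGF-beta, was 163 and 747 against 1146 and 1838, while the 25 tested integrin and adhesion genes had 3 higher, 2 lower and a median of -0.19, or 0.06 without Lrig1 ablation 2. Of the 13 tested hair shaft and root sheath genes, 5 were higher and 4 were lower in both Lrig1 ablation libraries, and the median of 0.44 was -0.34 with a stricter filter and 0.0045 without Lrig1 ablation 1. Among their keratins Krt35 was 2.83 and 0 against 25.7 and 19.1, Krt25 was 3.54 and 9.65 against 33.7 and 28.7, and Krt71 was 0 and 11.8 against 36.4 and 29.5, while Krt75 was 90.6 and 134 against 171 and 131 and overlapped. Foxn1, a factor of keratinocyte differentiation and of the hair shaft, went the other way, at 254 and 205 against 113 and 54.9. The hyaluronan synthases Has2 and Has3 were 204 and 198 against 66.6 and 128, and 697 and 388 against 268 and 182, so both were lower in both Lrig1 ablation libraries. Eda2r, a receptor of the ectodysplasin family and a p53 target, was 31.1 and 40.7 against 93.2 and 138, and the 18 tested p53 targets had 2 higher, 5 lower and a median of -0.31, between -0.53 and -0.16 with 1 library left out.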
